A study of Mus musculus with 6 samples.

Results

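Fibronectin and 9 matricellular genes were followed in isolated lung ECs (iLECs) of control and Atp6ap2 iECKO mice. The members were chosen by name and family, with earlier results of these data known. They are *Fn1*, the thrombospondins *Thbs1*, *Thbs2* and *Thbs3*, the tenascins *Tnc* and *Tnxb*, periostin (*Postn*), *Sparc* and its relative *Sparcl1*, and F-spondin (*Spon1*). All 10 were present among the 24972 gene symbols of the deposited table, and all 10 passed the filter on low values. *Thbs4*, *Comp* and *Tnr*, of the same families, were not among the members and were under that filter. The tenascin *Tnn* was not a member either, and it passed the filter. The RNA-Seq held 3 control and 3 Atp6ap2 iECKO libraries at P7, and the pups of both groups had been given 100 μg tamoxifen on P1 to P3. The labels give the genotype of the controls as PRR (Atp6ap2)fl/Y and that of the mutants as PRR (Atp6ap2)fl/Y with Cdh5-CreERT2+, so the floxed allele and the drug were shared and the controls had no Cre. Cdh5-CreERT2 is a tamoxifen-inducible Cre recombinase under the promoter of the endothelial cadherin gene, and deletion was therefore aimed at ECs and not at the other cells of the lung. The labels give the strain as C57BL/6, while the methods of the study describe a mixed CD1 and C57BL/6 background. iLECs were CD31+ cells pulled from digested lung with magnetic beads, a bulk population that can carry other cells along. The study checked their purity by immunoblot. It saw VE-cadherin in iLECs alone, and αSMA and desmin in the non-EC fraction. That blot is of protein, and the values here are RNA.

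Fibronectin is a secreted dimer that cells stretch into fibrils, and many other matrix proteins are laid down on that scaffold. Matricellular proteins are secreted into the matrix as well, but they serve as signals more than as structure: they bind cell surface receptors, growth factors and collagen, and change how firmly cells hold on. In the developing lung, mesenchymal cells make much of this matrix, and ECs also make fibronectin, thrombospondin 1 and SPARC.

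Values are normalized counts, the estimated read counts per gene that the authors had already scaled between libraries, and limma was run on log2 values after 1 was added to each. A gene is said to have fallen or risen where its Benjamini-Hochberg *P* value, adjusted across the 14456 genes that could be tested, was below 0.05. Totals per library were between 26243878 and 28725799, and the number of reads behind them is unknown. *Atp6ap2* itself had normalized counts of 7490, 5815 and 5681 in controls and of 4220, 2336 and 1982 in Atp6ap2 iECKO iLECs, so mutant replicate 1 kept the most. *Xist*, a transcript of the inactive X chromosome, was between 37704 and 47487 in 4 libraries, although all 6 are labelled fl/Y, and at 31.7 and 19.3 in control replicate 3 and mutant replicate 2. The methods of the study state that neonates of both sexes were used. Nothing in the labels says how many animals made up a sample.

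Of the 10 genes, 6 fell in Atp6ap2 iECKO iLECs and 0 rose, at an unadjusted *P* value below 0.05 as well as at an adjusted one (limma). Over all genes tested, 8.25% passed, 4.97% lower and 3.28% higher, and 23.9% had an unadjusted *P* value below 0.05. *Postn*, *Tnc*, *Spon1* and *Thbs1* were at 32.0% to 35.6% of their control means, and *Fn1* and *Thbs2* at 56.3% and 57.7%. *Sparc* (96.9%), *Sparcl1* (91.4%), *Thbs3* (68.0%) and *Tnxb* (112%) did not pass the test. The 2 genotypes did not overlap for the same 6 genes, all of which were lower in mutants, where 15% of all genes tested did not overlap in that direction, 14.7% in the other and 29.8% in either. The 10 genes had a median log2 fold change of -0.82, against 0.0049 over all genes tested. In bulk RNA, fewer cells of a type and less RNA per cell cannot be told apart.

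**Figure D1:**
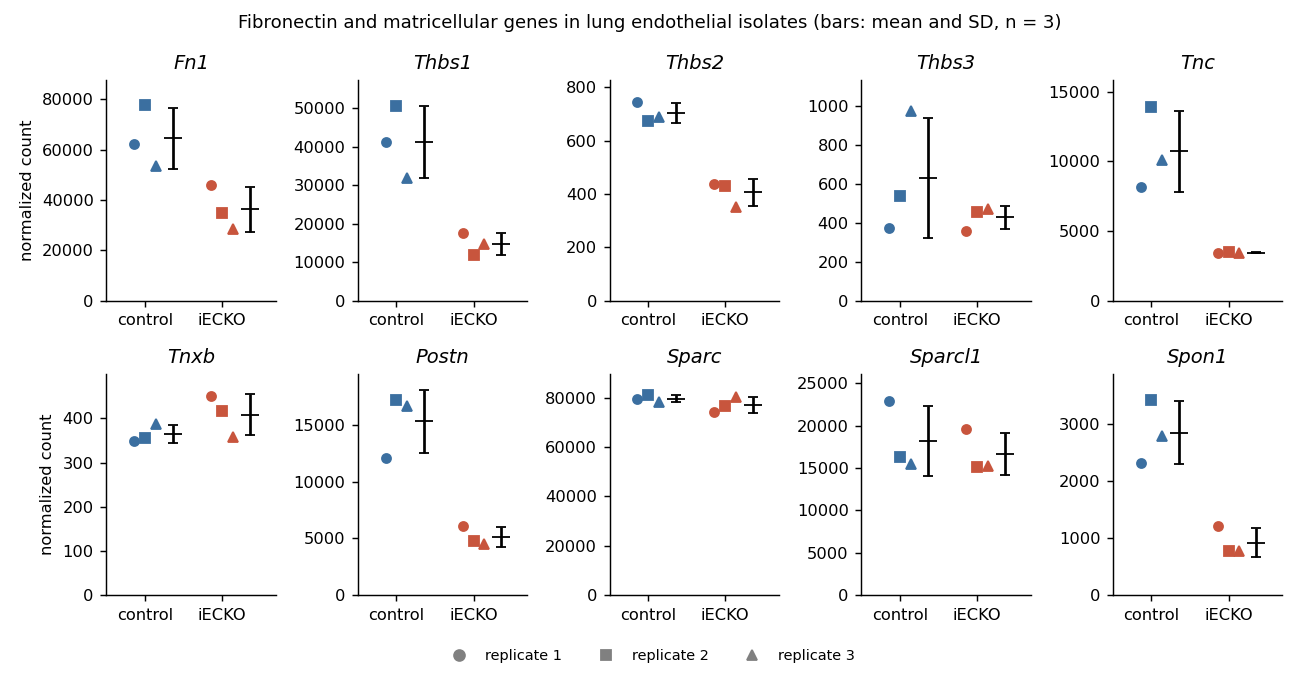
Normalized count (y axes, each starting at 0) of each of the 10 genes in control and Atp6ap2 iECKO libraries, with 1 marker shape per replicate number and bars for the mean and SD of 3 libraries. Every mutant library lies below every control library for *Fn1*, *Thbs1*, *Thbs2*, *Tnc*, *Postn* and *Spon1*, while the groups overlap for *Thbs3*, *Tnxb*, *Sparc* and *Sparcl1*.

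*Fn1*, on chromosome 1 of GRCm38 from 71585520 to 71653200, encodes fibronectin. Control replicates 1 to 3 had normalized counts of 62266, 77597 and 53510, and mutant replicates 1 to 3 of 45951, 34651 and 28337. The highest mutant library, replicate 1, was below the lowest control. That library kept the most *Atp6ap2* of the mutants, and it also had their highest sums of fibroblast and mural markers, given below. A relation of *Fn1* to *Atp6ap2* was not tested. The fall was 0.84 on the log2 scale (log2 fold change = -0.84, standard error 0.21, limma adjusted *P* = 0.0463). This call was the least stable of the 6: over the 6 fits that each left out a library, the log2 fold change ranged from -1.02 to -0.67, and the adjusted *P* value was below 0.05 in 1 of 6 fits, that without mutant replicate 1. It was 0.0505 with no filter on low values, 0.064 with *Xist* as a covariate and 0.106 without the mean-variance trend. With library size scaling it was 0.0347, and with a block for replicate number 0.0196. Over 17 other settings, which include those 6 fits, *Fn1* passed in 8. By immunostaining of P7 retinas, the study saw no obvious change in fibronectin, which it called comparable with the iLECs. The staining is of protein in retina, and the values here are RNA of lung isolates. The study's remark also covers the iLECs, for which its text gives no fibronectin value. The lower *Fn1* found here differs from that remark, and its call was unstable.

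Of the thrombospondins, *Thbs1* and *Thbs2* fell and *Thbs3* did not pass the test. *Thbs1*, on chromosome 2 from 118111876 to 118127133, and *Thbs2*, on chromosome 17 from 14665500 to 14694235, encode trimeric glycoproteins that restrain angiogenesis, in part through the receptor CD36, and thrombospondin 1 also activates latent TGF-β. *Thbs1* had 41272, 50481 and 31742 in controls and 17495, 11798 and 14714 in mutants. The mutant libraries were all well under the lowest control, and *Thbs1* fell by 1.48 on the log2 scale (standard error 0.20, limma adjusted *P* = 0.0103). It passed in all 6 fits that left out a library.

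*Thbs2* was a minor transcript beside *Thbs1*, with 747, 673 and 691 in controls and 438, 430 and 350 in mutants. Its control libraries were tightly spaced, with a coefficient of variation of 5.47%, and the gap to the mutants was wide for that spread. *Thbs2* fell by 0.80 on the log2 scale (standard error 0.13, limma adjusted *P* = 0.0138). The adjusted *P* value was 0.0507 without control replicate 3 and 0.0524 without mutant replicate 3. *Thbs3*, on chromosome 3 from 89215180 to 89226837, belongs to the pentameric thrombospondins. It had 375, 540 and 976 in controls and 360, 454 and 472 in mutants. Control replicate 3 stood far above all other libraries, and without it the log2 fold change went from -0.45 (95% interval -1.17 to 0.27, limma adjusted *P* = 0.436) to -0.08. *Thbs3* shares 318 exon bases, 6.59% of its own, with *Mtx1* on the opposite strand, and the library kit does not mark strand. The overlap of exons was at most 3.42% for the other members.

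Relative to *Thbs2* in the same library, *Thbs1* was 55.3, 75 and 45.9 times as abundant in normalized counts in controls and 39.9, 27.4 and 42.1 times in mutants. The ratio was lower in each mutant than in each control library, a difference of -0.68 on the log2 scale (two-sided exact permutation *P* = 0.1, which is the lowest this design can give, and 0.25 adjusted over 5 within-family ratios). The *Thbs1* to *Thbs3* ratio overlapped between genotypes (difference -1.03, exact permutation *P* = 0.2), as did that of *Thbs2* to *Thbs3* (-0.35, exact permutation *P* = 0.6). Both rested on single controls: without control replicate 3 they were -1.58 and -0.73, and without control replicate 1 they were -0.70 and 0.014.

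The promoter windows of *Thbs2*, which fell, and *Thbs3*, which did not pass, are shown because these relatives differed in their calls. Each window is the 250 bases before the RefSeq transcription start in GRCm38.p6, written 5′ to 3′ on the gene's strand. Windows were at hand for 6 of the 10 genes, and not for *Fn1*, *Thbs1*, *Sparcl1* and *Spon1*. Capitals mark every match, on either strand, to 7 motifs. The TATA box was searched as TATAAA, the NF-Y motif as CCAAT and the GC box of the SP factors as GGGCGG. The AP-1 motif was searched as TGANTCA, the TEAD motif as GGAATG, an E-box as CAGCTG and the SRF motif as the CArG box. No match of 1 motif overlapped that of another in the windows printed here. A match is a description of the letters and not a bound site.
Thbs2 promoter, chr17:14694263-14694512, minus strand: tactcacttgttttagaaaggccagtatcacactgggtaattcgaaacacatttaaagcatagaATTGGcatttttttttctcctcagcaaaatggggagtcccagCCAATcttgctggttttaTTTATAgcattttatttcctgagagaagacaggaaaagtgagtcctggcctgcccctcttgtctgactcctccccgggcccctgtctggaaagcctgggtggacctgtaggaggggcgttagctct
Thbs3 promoter, chr3:89214930-89215179, plus strand: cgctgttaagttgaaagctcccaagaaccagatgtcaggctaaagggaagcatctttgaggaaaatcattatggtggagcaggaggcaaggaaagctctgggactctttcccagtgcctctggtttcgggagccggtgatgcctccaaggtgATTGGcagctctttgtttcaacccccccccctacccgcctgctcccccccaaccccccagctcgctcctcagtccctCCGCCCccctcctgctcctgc
*Thbs2* held TATAAA, read on the opposite strand, and CCAAT on both strands. *Thbs3* held CCAAT and GGGCGG, both read on the opposite strand. Of 32851 windows of this length, 12.4% held TATAAA, 33.8% CCAAT and 32.7% GGGCGG.

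Of the tenascins, *Tnc* fell and *Tnxb* did not pass the test. *Tnc*, on chromosome 4 from 63959785 to 64047015, encodes tenascin C, a hexamer laid down for a time during morphogenesis and repair. It had 8168, 13892 and 10126 in controls and 3404, 3467 and 3427 in mutants. The control libraries spread widely and the mutants hardly at all, with coefficients of variation of 27.1% and 0.938%. *Tnc* fell by 1.61 on the log2 scale (standard error 0.17, limma adjusted *P* = 0.0073). *Tnxb*, on chromosome 17 from 34670535 to 34719815, encodes tenascin X, which organizes collagen fibrils in connective tissue. It had 348, 356 and 387 in controls and 451, 418 and 358 in mutants. The genotypes overlapped, and the log2 fold change was 0.16 (95% interval -0.15 to 0.47, limma adjusted *P* = 0.518). *Tnc* was 23.5, 39.1 and 26.2 times as abundant as *Tnxb* in control libraries and 7.55, 8.3 and 9.58 times in mutant libraries. This ratio was lower in mutants by 1.77 on the log2 scale, with no overlap, and did not pass (two-sided exact permutation *P* = 0.1, adjusted 0.25).

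The promoter windows of both tenascins are given for the same comparison.
Tnc promoter, chr4:64047016-64047265, minus strand: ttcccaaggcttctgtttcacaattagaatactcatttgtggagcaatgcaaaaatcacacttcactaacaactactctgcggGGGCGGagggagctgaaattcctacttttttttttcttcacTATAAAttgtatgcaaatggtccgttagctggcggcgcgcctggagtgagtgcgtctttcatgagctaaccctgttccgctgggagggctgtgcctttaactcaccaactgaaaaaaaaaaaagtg
Tnxb promoter, chr17:34670285-34670534, plus strand: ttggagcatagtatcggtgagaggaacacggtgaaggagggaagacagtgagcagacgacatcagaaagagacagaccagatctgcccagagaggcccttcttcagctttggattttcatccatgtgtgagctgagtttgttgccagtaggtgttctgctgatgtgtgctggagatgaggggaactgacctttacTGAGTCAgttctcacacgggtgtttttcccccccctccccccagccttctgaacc
*Tnc* held TATAAA 126 bases before this start and GGGCGG 167 bases before it, counted to the first base of the match. A second annotated start of *Tnc* lies 79 bases further into the gene. *Tnxb* held TGANTCA, which reads the same on both strands and which 6.75% of all windows held.

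*Postn*, on chromosome 3 from 54361109 to 54391037, encodes periostin, which binds integrins and collagen and is a typical product of fibroblasts in growing connective tissue. Controls had 12064, 17176 and 16626 and mutants 6066, 4805 and 4481. Control replicate 1 was the lowest control and mutant replicate 1 the highest mutant, and a wide gap separated them. *Postn* fell by 1.57 on the log2 scale (standard error 0.16, limma adjusted *P* = 0.0073), and it passed in all 6 fits that left out a library. Its promoter window held TATAAA 26 bases before the start.
Postn promoter, chr3:54360857-54361106, plus strand: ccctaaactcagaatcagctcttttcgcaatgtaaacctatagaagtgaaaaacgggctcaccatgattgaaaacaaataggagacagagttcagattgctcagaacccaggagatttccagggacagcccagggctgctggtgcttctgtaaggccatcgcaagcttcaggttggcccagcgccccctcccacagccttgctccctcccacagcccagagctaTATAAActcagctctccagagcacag
The 3 members with a window that fell, *Thbs2*, *Tnc* and *Postn*, each held TATAAA, and *Thbs3* and *Tnxb* did not. The matches differed in place and strand. They lay 26 bases before the start in *Postn*, 126 in *Tnc* and 126 on the opposite strand in *Thbs2*. The window at hand for *Sparc* did not hold TATAAA either. It belongs to a start inside the gene, 3103 bases from the annotated gene start, and so does not show the promoter of *Sparc*. The window of an earlier RefSeq start of *Postn*, 1842 bases from the annotated gene start, held none of the motifs. With 6 genes this is a description and was not tested.

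*Spon1*, on chromosome 7 from 113765998 to 114043370, encodes F-spondin, a thrombospondin-repeat protein first known for its effect on axon growth. It had 2317, 3412 and 2780 in controls and 1206, 775 and 774 in mutants. All mutants were far below the controls, with replicate 1 the highest of them. *Spon1* fell by 1.64 on the log2 scale (standard error 0.20, limma adjusted *P* = 0.0085). *Tnc* and *Spon1*, like *Postn* and *Thbs1*, passed in all 6 fits that left out a library.

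Neither *Sparc* nor *Sparcl1* passed the test. *Sparc*, on chromosome 11 from 55394500 to 55423183, encodes a collagen-binding glycoprotein that loosens cell adhesion. It had 79512, 81134 and 78141 in controls and 74220, 76670 and 80410 in mutants. The libraries interleaved, with coefficients of variation of 1.88% and 4.04%. The log2 fold change of *Sparc* was -0.05, with a 95% interval from -0.32 to 0.22 that leaves out falls of the size seen in *Fn1* (limma adjusted *P* = 0.851). *Sparcl1*, on chromosome 5 from 104079111 to 104113733, encodes its relative hevin. It had 22957, 16288 and 15448 in controls and 19557, 15151 and 15287 in mutants. Replicate 1 was the highest library of each genotype, and the rest lay close together. The log2 fold change was -0.12 (95% interval -0.51 to 0.28, limma adjusted *P* = 0.736), and it was 0.06 without control replicate 1. The *Sparc* to *Sparcl1* ratio differed by 0.07 on the log2 scale between genotypes (exact permutation *P* = 0.5).

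**Figure D2:**
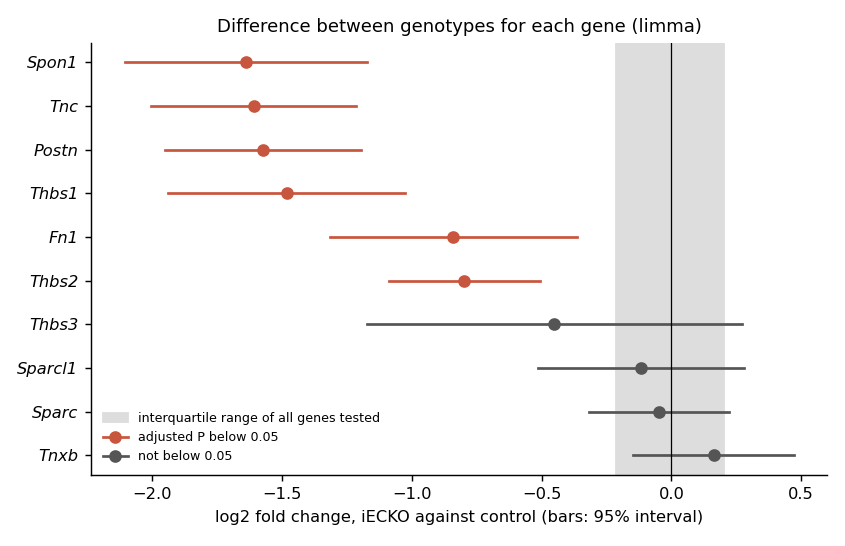
Log2 fold change of each gene (x axis, Atp6ap2 iECKO against control, from limma), with its 95% interval, ordered by size. The 6 genes in orange passed an adjusted *P* value of 0.05 and lie between -1.64 and -0.80, and the grey band spans the interquartile range of all genes tested, -0.22 to 0.20.

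Per kilobase of the longest coding transcript, *Sparc* was by far the most abundant of the 10 genes in both genotypes, at 34607 ± 652 normalized counts per kb in controls and 33522 ± 1355 in mutants (SD, n = 3 each). In controls it was followed by *Fn1* (7752 ± 1466), *Thbs1* (7039 ± 1602) and *Sparcl1* (6608 ± 1491), each overlapping the next in the order. *Postn* (4770 ± 876), *Tnc* (1510 ± 409) and *Spon1* (460.4 ± 89.3) came next without overlap. *Thbs3* (197.5 ± 97.3) and *Thbs2* (119.3 ± 6.5) overlapped, and *Tnxb* was lowest at 29.8 ± 1.7 (SD, n = 3 for each gene). In mutants *Sparcl1* stood second on this scale at 6040 ± 908, ahead of *Fn1* at 4367 ± 1073, though these 2 overlapped. *Thbs1* came down to 2508 ± 487, below every *Fn1* library, whereas both overlapped in controls.

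For *Tnc*, *Postn* and *Spon1*, control replicate 1 was the lowest control, and the summed levels of fibroblast and of mural markers were also lowest in that control. For the other genes that fell it was not: the lowest control was replicate 3 for *Fn1* and *Thbs1* and replicate 2 for *Thbs2*. Of 14 tested fibroblast markers, 12 fell and 0 rose (limma, with 12 lower and 1 higher at an unadjusted *P* value below 0.05), with a median log2 fold change of -1.54. The 1 on the other side was *Pi16*, a marker of adventitial fibroblasts named after its value was seen. It had 89.7, 58.4 and 45.0 in controls and 183.8, 94.3 and 142.3 in mutants, with no overlap and a log2 fold change of 1.12 (limma adjusted *P* = 0.0902). Of 16 mural markers, those of pericytes and smooth muscle, 11 fell and 0 rose (15 lower and 0 higher at an unadjusted *P* value below 0.05), with a median of -1.52. The summed fibroblast markers ranged from 47261 to 80203 in controls and from 19289 to 24715 in mutants. The summed mural markers ranged from 20821 to 31033 and from 8683 to 10823. *Col3a1*, *Dpt*, *Col1a2* and *Col1a1* had the lowest *P* values among the fibroblast markers, with log2 fold changes from -1.78 to -1.56, and *Rgs5*, *Trpc6*, *Cox4i2* and *Gucy1a1* among the mural markers, from -1.94 to -1.37. None of these markers was at 0 in every library. *Dcn* and *Lum*, known products of mature fibroblasts and named after their values were seen, were low in controls too, at 17.7 and 4.52 on average. Without control replicate 3 or mutant replicate 3, 5 fibroblast and 7 mural markers passed, and without mutant replicate 2, 7 of each.

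The 20 endothelial markers summed to 412633 up to 532681 in controls and to 426520 up to 493966 in mutants, with a median log2 fold change of 0.04, so the labelled cell type was present in every library. Of these, *Tek* fell (-0.53, limma adjusted *P* = 0.0292), and of the 6 fits that left out a library it passed in that without mutant replicate 1. Next by *P* value were *Plvap* (-0.41), *Emcn* (0.27) and *Egfl7* (0.18), which did not pass. Of 15 epithelial markers 0 fell and *Scgb1a1* rose, and of 15 leukocyte, 7 platelet and 2 mesothelial markers tested 0 passed (limma, with 0, 0 and 1 at an unadjusted *P* value below 0.05). *Scgb1a1* passed in 1 of the 6 fits that left out a library, that without control replicate 3, and neither without the mean-variance trend nor with *Xist* as a covariate. The epithelial sum was 79527 in control replicate 3 and between 31309 and 45734 in the other 5 libraries. Platelets carry CD31 and store thrombospondin 1. Their markers summed to 1078 up to 3433 in controls and to 1230 up to 2964 in mutants. The lowest *P* values of these lists, which did not pass except for *Scgb1a1* (log2 fold change = 1.75), belonged to *Foxj1*, *Krt8* and *Krt18* (-0.36 to 0.46), *Marco*, *Cd79a* and *Cd3e* (0.43 to 0.89), *Gp1ba*, *Ppbp*, *Itga2b* and *Treml1* (-0.22 to 1.22), and *Upk1b* and *Msln* (-4.50 and 0.10).

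**Figure D3:**
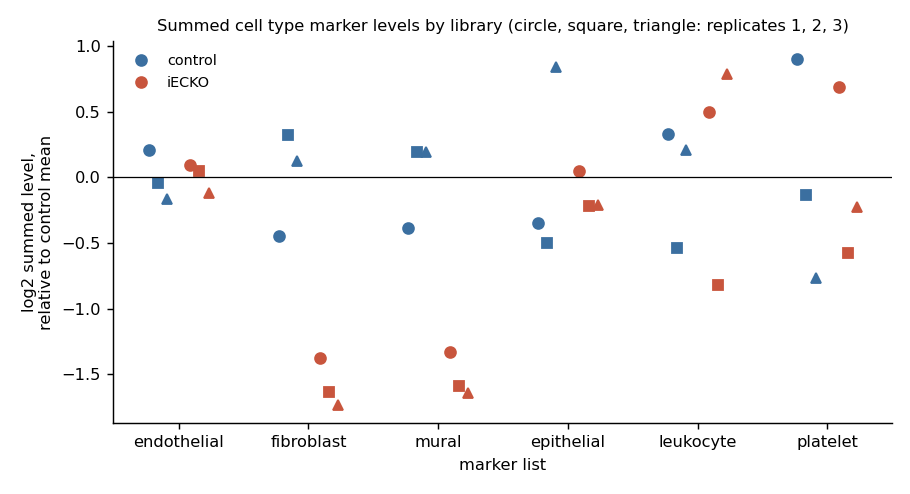
Summed normalized count of each of 6 marker lists (x axis) on the log2 scale, relative to the control mean of that list (y axis), with 1 point per library. The fibroblast and mural sums of all 3 mutant libraries lie more than 1 log2 unit below the control mean, and the other lists overlap between genotypes.

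The 10 genes were also set against the summed fibroblast markers of the same library. The difference in this ratio is in effect a gene's own log2 difference less that of the sum, which was -1.58. Its order over the 10 genes is therefore that of their log2 fold changes. A gene with no change must have a higher ratio in mutants. Relative to this sum, *Postn* had a mean log2 ratio of -2.09 in controls and -2.08 in mutants. The difference between genotypes was -0.06 for *Spon1*, -0.03 for *Tnc* and 0.10 for *Thbs1*, and the libraries of the genotypes overlapped for all 4 genes (exact permutation *P* from 0.7 to 1). With a library left out, these small differences changed sign for all 4 genes, within -0.17 to 0.025 for *Spon1*, -0.11 to 0.080 for *Tnc* and -0.059 to 0.067 for *Postn*. That of *Thbs1* moved most, to 0.34 without control replicate 1 and to -0.14 without control replicate 3. For *Fn1* and *Thbs2* the ratio was higher in each mutant than in each control library, by 0.74 and 0.78 on the log2 scale. For *Thbs3*, *Sparcl1*, *Sparc* and *Tnxb* it was higher by 1.13, 1.47, 1.54 and 1.75, again with no overlap (two-sided exact permutation *P* = 0.1 for these 6 genes, the lowest this design can give, and 0.176 adjusted over the 30 ratios to marker sums). *Col1a1*, *Col1a2* and *Col3a1* made up 81.5% to 84.5% of the fibroblast sum. With these 3 collagens taken out of the sum, the difference was between -0.10 and 0.06 for *Spon1*, *Tnc*, *Postn* and *Thbs1* and 0.70 and 0.74 for *Fn1* and *Thbs2*, and the groups for *Thbs3* overlapped. Relative to the mural sum the same 4 genes differed by -0.12 to 0.04. The part of the marker levels in the falls was not tested.

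**Figure D4:**
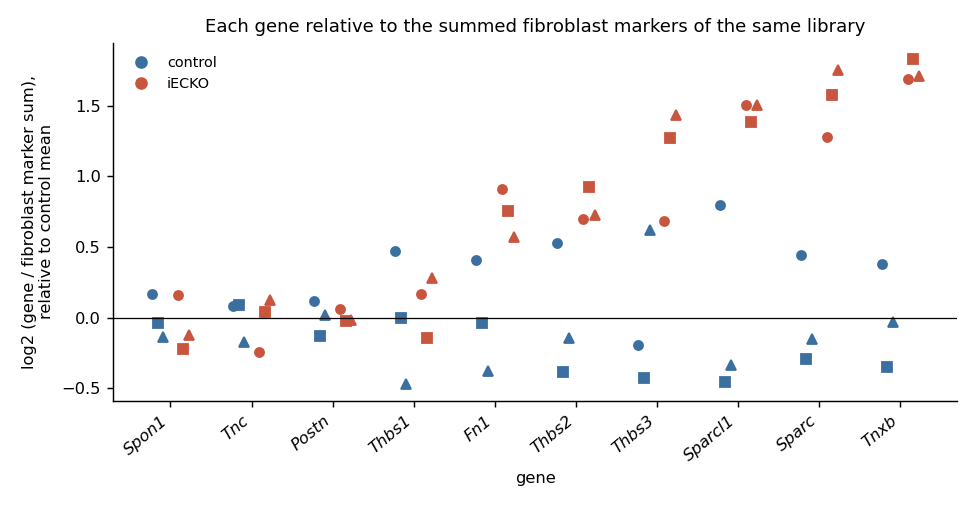
Log2 ratio of each gene to the summed fibroblast markers of its own library, relative to the control mean of that ratio (y axis), for control and Atp6ap2 iECKO libraries (circle, square and triangle for replicates 1, 2 and 3). The genotypes overlap for *Spon1*, *Tnc*, *Postn* and *Thbs1*, and the mutants lie above the controls for the 6 genes to the right.

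The genes whose profile over the 6 libraries was nearest to that of a member, by the root-mean-square difference of centred log2 values among non-members with a mean of at least 100, were found for 3 members. For *Postn* they were *Heyl* (0.031), the fibroblast marker *Col3a1* (0.047) and the mural marker *Pdgfrb* (0.055). For *Fn1* they were *Slit3* (0.116), *Fbn1* (0.123) and *Nhs* (0.125), at a greater distance. For *Sparc*, whose profile was flat, they were *Gpalpp1* (0.019), *Camsap1* (0.023) and *Supt20* (0.026), 3 other genes that hardly varied.

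Relatives of these genes outside the 10 were looked at on a list of 20 matricellular genes, of which 14 could be tested. Of these, 5 fell and 0 rose (limma, with 6 lower and 1 higher at an unadjusted *P* value below 0.05), and the median log2 fold change was -0.68. The 1 on the higher side was *Nov*, named after its value was seen. It had 50.1, 54.2 and 37.8 in controls and 116, 66.8 and 158 in mutants. Its log2 fold change was 1.18 (limma adjusted *P* = 0.0825). *Wisp1*, a CCN family gene, had 582, 1110 and 822 in controls and 289, 320 and 346 in mutants (log2 fold change = -1.35, standard error 0.22). *Tgfbi*, the nearest relative of periostin, went from 5507 ± 2151 to 2421 ± 296 (SD, n = 3 each), a log2 fold change of -1.11. *Spon2*, a relative of F-spondin, had a log2 fold change of -1.22, and vitronectin (*Vtn*), at low levels, one of -1.50. *Fstl1*, a SPARC-related gene, fell by 0.44 on the log2 scale, from 18529 ± 805 to 13664 ± 1497 (SD, n = 3 each). This list depended on single libraries: 0 of its genes passed without control replicate 3, without mutant replicate 2 or without mutant replicate 3, 1 without control replicate 2, 2 without mutant replicate 1, 3 with library size scaling, 2 with *Xist* as a covariate, and 0 without the mean-variance trend. *Thbs4* and *Comp*, the other thrombospondins, were under the filter, at 3.86 and 4.67 on average in controls, and *Tnr* was at 0.755. The tenascin *Tnn*, named after its value was seen, could be tested, at 14.7 on average in controls. Its log2 fold change was -0.03 (limma adjusted *P* = 0.981).

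Of 15 receptors of these proteins, 3 fell and 1 rose. *Itga8*, an integrin subunit of mesenchymal cells that binds fibronectin and tenascin C, had 3816, 6625 and 5713 in controls and 1892, 1764 and 1449 in mutants (log2 fold change = -1.63, limma adjusted *P* = 0.0085). *Lrp1*, an endocytic receptor of thrombospondins, fell by 1.04 on the log2 scale, and *Vldlr* by 0.44. *Lrp8*, which binds F-spondin, rose from 25.6 ± 8.0 to 83.3 ± 13.2 (SD, n = 3 each), a log2 fold change of 1.71 at low levels. Without control replicate 3, mutant replicate 2 or mutant replicate 3, 1 of the receptors passed, and without control replicate 2, 2 passed. *Itga5* and *Itgb1*, the subunits of the main fibronectin receptor, are named here for their role and after their values were seen. Their log2 fold changes were -0.05 and 0.06, and their libraries overlapped. *Cd36*, the receptor of thrombospondin 1, had 43064, 30683 and 31161 in controls and 30581, 22524 and 20971 in mutants, and its log2 fold change of -0.50 did not pass (limma adjusted *P* = 0.144). It is named on the same grounds.

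Of 16 genes of fibulins, fibrillins and elastic fibres, 6 fell and 0 rose (limma, with 7 lower and 0 higher at an unadjusted *P* value below 0.05). *Mfap4* had the largest fall, from 39913 ± 6508 to 11356 ± 3560 (SD, n = 3 each), or 1.84 on the log2 scale. *Loxl1*, which crosslinks elastin, fell by 1.72, *Mfap2* by 0.83 and *Fbn1*, the gene of fibrillin 1, by 0.83. *Eln*, the gene of elastin itself, named after its value was seen, had a log2 fold change of 0.03. Without control replicate 3, mutant replicate 2 or mutant replicate 3, 3 of the 16 passed, and without the mean-variance trend 2 passed.

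**Figure D5:**
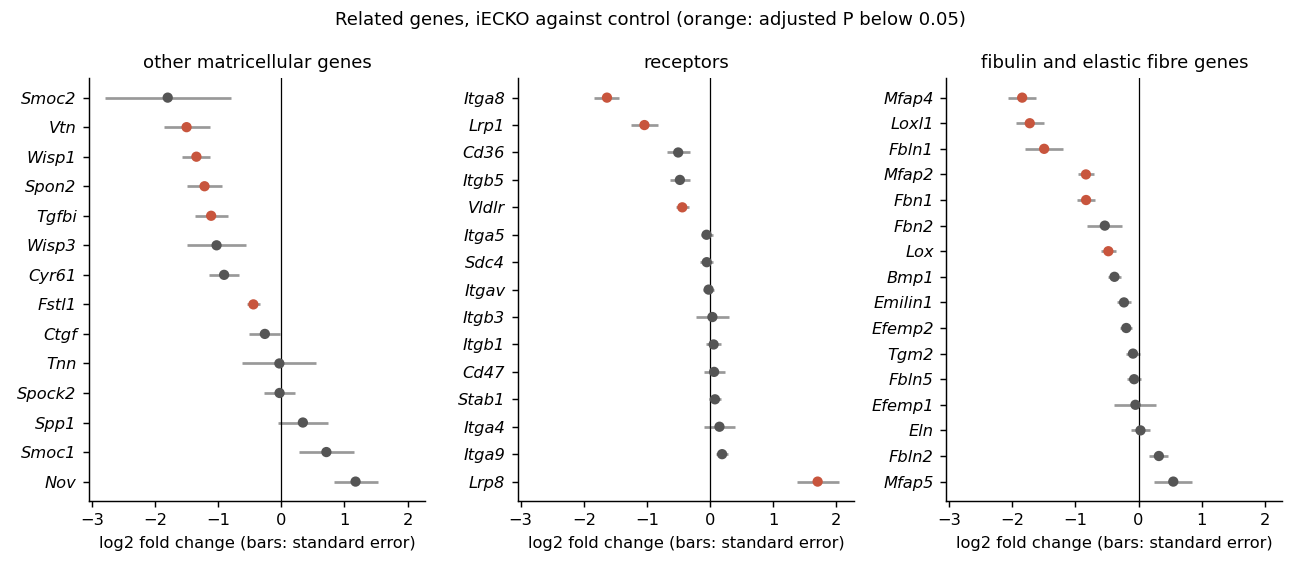
Log2 fold change (x axis, Atp6ap2 iECKO against control) with its standard error for the tested genes of 3 lists, ordered within each list. The genes in orange passed an adjusted *P* value of 0.05, and of these *Lrp8* alone, at 1.71, lies to the right of 0.

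The 4 libraries with high *Xist* and the 2 without were also compared apart, since the labels do not set them apart. In the 4 libraries, 2 of each genotype, the 6 genes had log2 fold changes from -1.64 for *Tnc* to -0.86 for *Thbs2*. Of the 10 genes 0 then passed, and 6 had an unadjusted *P* value below 0.05 (limma). Of all genes, 1 passed at that size. In the other 2 libraries, 1 of each genotype and so without a test, they were from -1.84 for *Spon1* to -0.63 for *Fn1*. That of *Thbs3* was -1.10 there and -0.12 in the 4 libraries. With the presence of *Xist* as a covariate, 5 of the 10 genes passed, all but *Fn1* of the 6.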

How the data were processed

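For 3 control and 3 mutant iLEC samples, mRNA was sequenced by the authors, aligned to mm10 and quantified per gene with BaseSpace tools; the annotation is not given in the sources used here. The deposited values are a normalized signal: estimated counts, not whole numbers, with the same median ratio to the geometric mean in every library, although the labels call them raw. Whole-number counts were absent, so no count test was run.

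Genes with at least 10 normalized counts in at least 3 libraries (14456) entered limma (version 3.58.1, R 4.3.3) on log2(value + 1), which understates changes of low genes, with a mean-variance trend, no covariate and an adjusted threshold of 0.05. The test was checked on simulated data. Ratios within a library were compared by exact permutation (scipy 1.17.1). Gene positions came from GENCODE for GRCm38 (mm10), promoters from RefSeq. Precision is given by the SD or standard error over 3 libraries, which the study calls biological replicates and whose spread may be technical in part.

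Named were all 10 members, *Atp6ap2*, *Xist*, up to 4 genes with the lowest *P* of each other list, every matricellular relative that passed, and the nearest profiles; 1 marker that this rule names is not reported here. The 10 genes, the lists and the tests were chosen with earlier results of these data known. Alternatives were other scalings, filters, pseudocounts (0.5 and 10) and variance models, a replicate block, *Xist*, and each library left out. Figures were drawn with matplotlib 3.10.9.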

Additional observations from a re-analysis of the deposited data

How the results depend on the processing

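The number of the 10 genes past the threshold was 6 with library size or upper quartile scaling, a mean of at least 100, either other pseudocount and a robust variance, 5 with no filter, without the trend and with *Xist* as a covariate, and 4 to 6 with each library left out. It was 0 in the 4 libraries with *Xist* above 1000. *Thbs1*, *Tnc*, *Postn* and *Spon1* lost their calls in that setting alone, with adjusted *P* = 0.125 for each; the size of the groups, 2 against 2, is part of its construction. The log2 fold change of *Sparcl1* ranged from -0.24 to 0.061 with a library left out, and it was 0.061 without control replicate 1; the cause was not tested. Deviations of same-numbered libraries had correlations of 0.252, 0.114 and 0.0782, and those of differently numbered libraries from -0.208 to 0.1. For each mutant library the highest correlation was with the control of the same number. No pairing is stated for the samples, so the main fit treated them as unpaired. With the replicate block, a fit that treats equal numbers as pairs, 6 of the 10 genes passed, and 1508 of all genes in place of 1193; 6 of the 15 receptors passed in place of 4, *Cd36* (adjusted *P* = 0.0162) and *Itgb5* (0.0474) being added, and *Pi16* passed as well (0.0436). Of all genes, 304 passed without the mean-variance trend, 767 with *Xist* as a covariate, 1 in the 4 libraries, and 204 to 989 with a library left out (268, 248 and 204 without control replicate 3, mutant replicate 2 and mutant replicate 3). The read depth behind the values is unknown, which limits *Lrp8*, *Vtn* and other low genes most. The settings without the collagens in the marker sum and with the 2 libraries low in *Xist* were chosen after seeing the data.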
